A study of Homo sapiens with 18 samples.

Results

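The small noncoding RNAs described here are the snoRNAs, Cajal body RNAs, spliceosomal snRNAs and short RNA polymerase III transcripts with a probe on the Illumina HumanHT-12 v4 array. A probe was taken as a member when its single gene symbol began with SNORD, SNORA, SCARNA, RNU, RNY, VTRNA, SNAR or RN7S, or was RMRP or RPPH1, and when its detection p-value was under 0.01 on at least 3 of the 18 arrays. Of 333 probes with such a symbol, 143 met this rule, for 140 genes, among 19455 probes of 47217 that met the same detection rule. The members were 64 box C/D snoRNAs, 50 probes of 49 box H/ACA snoRNAs, 7 Cajal body RNAs, 9 probes of 8 snRNAs, 12 probes of 11 polymerase III RNAs and RNU105C, which the reference lists as a snoRNA of no stated class.

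The study exposed 2 human leukaemia lines, Jurkat (a T-cell line) and THP1 (a monocytic line), to graphene oxide sheets and profiled their RNA. Each line had 3 arrays after 24 h with GO at 50 µg/ml, 3 after 24 h with GONH2 at 50 µg/ml and 3 untreated controls, where GO is unmodified graphene oxide and GONH2 is the same material carrying amino groups. The arrays of a group are described as biological and technical triplicates, so the p-values measure the spread between these arrays, part of which may be technical. In bulk RNA of this kind, fewer cells of a type and less RNA per cell cannot be told apart.

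Both sets of labels had limits. The treated means tabulated for GO-treated monocytes matched the THP1 arrays labelled GONH2 at 1996 of 1996 probes and the THP1 arrays labelled GO at 0 of 1996, within 0.005 on the log2 scale, while the table for GO-treated T cells matched the Jurkat GO arrays at all 1996. The THP1 groups are therefore named "labelled GO" and "labelled GONH2" throughout. On the Jurkat control arrays 16 of 18 myeloid markers (among them ELANE, CEBPA, SPI1 and LYZ) and 6 of 17 T-cell markers (CD3D, CD247, LAT, LEF1, BCL11B and SH2D1A) were detected on all 3 arrays, against 17 of 18 myeloid markers and 1 T-cell marker (LAT) on the THP1 control arrays. The summed myeloid intensity was 41780 to 44270 on the Jurkat controls and 66040 to 76580 on the THP1 controls, and the summed T-cell intensity was 961.9 to 1105 against 351.8 to 385.6. The Jurkat arrays are therefore the arrays labelled Jurkat, and what share of their signal came from T cells was not tested.

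Small nucleolar RNAs (snoRNAs) are guides that pair with ribosomal RNA and direct its chemical modification. Box C/D snoRNAs direct 2′-O-methylation, box H/ACA snoRNAs direct pseudouridylation, and a few of them, U3 above all, act in cutting the pre-ribosomal RNA. Cajal body RNAs do the same for the snRNAs, the RNA cores of the spliceosome. Most human snoRNAs are cut out of introns of host genes, whereas RNA polymerase III makes U6, 7SK, 7SL, the Y RNAs, the vault RNAs and the RNAs of RNase P and RNase MRP from genes of their own. Most of these RNAs carry no poly(A) tail, and the labelling kit primed on poly(A), so which molecules the probes read (mature, tailed or precursor) cannot be told from the arrays.

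Sequences of 1 member of each of 3 classes are given to show what sets the classes apart, taken from RefSeq on GRCh38.p14 and written 5′ to 3′. The capitals mark the A box of a polymerase III promoter inside the vault RNA (first 50 bases of VTRNA1-1, chr5:140711276-140711325, plus strand), box D of the C/D guide (all 66 bases of SNORD58B, chr18:49491664-49491729, minus strand) and the ACA box 3 bases before the end of the H/ACA guide (last 87 bases of SNORA84, chr9:92292461-92292547, minus strand).
VTRNA1-1: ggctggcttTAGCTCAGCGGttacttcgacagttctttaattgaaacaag
SNORD58B: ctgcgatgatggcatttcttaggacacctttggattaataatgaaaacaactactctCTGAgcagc
SNORA84: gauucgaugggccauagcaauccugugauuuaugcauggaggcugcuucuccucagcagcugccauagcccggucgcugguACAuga
Searched on both strands, the A box letters stood in 1.33% of 35116 promoter windows cut to the same length and CTGA in 47.5% of them, and an ACA at that distance from the end stood in 2.34%. SNORD58B itself did not pass the test in either line (log2 fold change −0.56, SE 0.164, limma adjusted p = 0.0235 in Jurkat GO), nor did SNORA84 (0.44 in Jurkat GO and 0.17 in THP1 labelled GONH2), and VTRNA1-1 fell in 3 of the 4 comparisons, as described below.

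Fewer small RNAs were detected after GO in the Jurkat arrays and in the THP1 arrays labelled GONH2. Detection also chose the members, so these counts are a description. Members detected numbered 70, 70 and 85 on the Jurkat GO arrays, 95, 101 and 110 on the Jurkat GONH2 arrays and 116, 112 and 118 on the Jurkat controls. In THP1 they numbered 102, 118 and 111 on the arrays labelled GO, 77, 83 and 94 on those labelled GONH2 and 102, 110 and 123 on the controls. The 3 Jurkat GO arrays and the 3 THP1 arrays labelled GONH2 were the lowest of their lines, with no overlap with the other groups, although the probes detected in all ranged only from 15761 to 17809 per array. Over all 333 small RNA probes, chosen by symbol alone, 72 to 88 were detected with GO, 95 to 113 with GONH2 and 117 to 120 on the Jurkat controls. In THP1 77 to 98 were detected on the arrays labelled GONH2 and 104 to 127 on the controls.

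Levels were then compared. A difference was called at p under 0.001 and Benjamini-Hochberg adjusted p under 0.05 over all 19455 probes (limma, 3 arrays against 3), and all changes are log2 fold changes of background-corrected, quantile-normalized intensity. In Jurkat GO 59 of 143 members (41.3%) fell and 3 rose, where 12.3% of all probes fell and 12.8% rose. In THP1 labelled GONH2 41 members (28.7%) fell and 3 rose, where 9.98% of all probes fell and 9.89% rose. In THP1 labelled GO 7 members fell and 1 rose, beside 3.89% and 4.04% of all probes, and in Jurkat GONH2 3 members fell and 0 rose, beside 0.288% and 0.524%. Before adjustment 38 members had p under 0.05 on the lower side there and 5 on the higher side. Of all 19455 probes 1830 and 1790 did so.

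The median member moved by −0.636 in Jurkat GO, by −0.477 in THP1 labelled GONH2, by −0.144 in Jurkat GONH2 and by −0.0482 in THP1 labelled GO, while the median of all probes was 0.0558, 0.0466, −0.0108 and −0.00394 in that order. With members that were detected on 0 of 3 arrays of a group set at their bound, the median member was at −0.462, −0.332, −0.134 and −0.0431. A probe that passed detection only in a group where it was high had to differ, so the 47 members detected on all 18 arrays were also counted by themselves. In Jurkat GO 28 of the 47 fell and 1 rose, with a median of −0.887 beside 0.0875 for the 13142 probes so detected. Of those 13142 probes 2020 fell and 2259 rose. In THP1 labelled GONH2 19 fell and 2 rose, with a median of −0.536 beside 0.0552 for the 13142 probes. Of the 13142 probes 1583 fell there and 1750 rose. Of the 72 members below the median member level 16 fell in Jurkat GO (2.76% of all probes in that range of level did), and of the 71 above it 43 fell (15.2% of all probes). Scaling each array to its median over all probes moved the median of all probes in Jurkat GO to −0.134, and scaling to probes detected on all arrays moved it to 0.114; the median member then stood at −0.735 and −0.487. The same settings gave −0.193 and 0.137 for all probes in THP1 labelled GONH2, with the median member at −0.602 and −0.272.

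**Figure D1:**
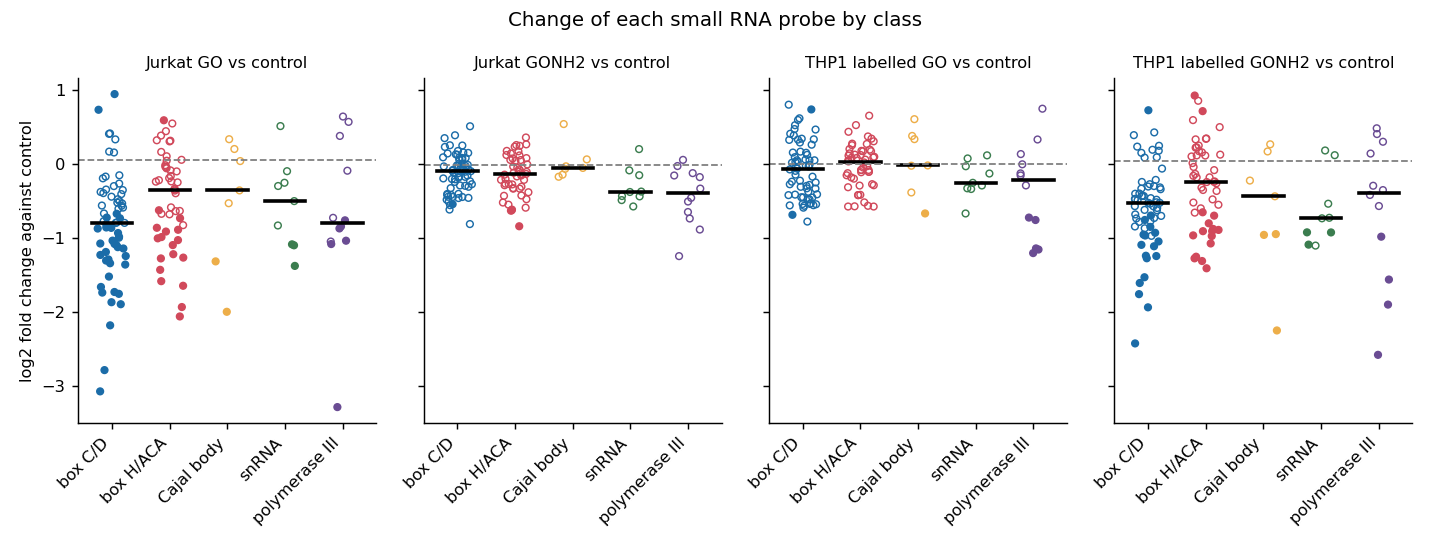
Each point is 1 small RNA probe, placed by class and by its log2 fold change against the control of its line; filled points were called, black bars are class medians and the dashed line is the median of all 19455 tested probes. Class medians of fitted values lie below the dashed line in Jurkat GO (box C/D −0.792, box H/ACA −0.35) and in THP1 labelled GONH2 (−0.53 and −0.238).

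All 5 classes had a median below 0 in Jurkat GO and in THP1 labelled GONH2. In Jurkat GO the box C/D median was −0.792 with 31 of 64 lower and 2 higher, and the box H/ACA median was −0.35 with 17 of 50 lower and 1 higher. The Cajal body median was −0.356 (2 of 7 lower), that of snRNAs −0.501 (3 of 9 lower) and that of polymerase III RNAs −0.801 (6 of 12 lower). In THP1 labelled GONH2 the order of the guide classes was the same, with −0.53 for box C/D (17 lower, 1 higher) and −0.238 for box H/ACA (14 lower, 2 higher). The Cajal body median there was −0.436 (3 lower), the snRNA median −0.733 (3 lower) and the polymerase III median −0.385 (4 lower). These medians are descriptions and their differences were not tested. With members set at their bound, box C/D and box H/ACA stood at −0.576 and −0.292 in Jurkat GO and at −0.447 and −0.17 in THP1 labelled GONH2, and polymerase III RNAs at −0.314 and −0.291. The box C/D median lay below the box H/ACA median in all 12 settings in both comparisons. The polymerase III median instead turned to 0.474 and 0.273 when taken over the 4 of its probes detected on all 18 arrays. In Jurkat GONH2 the box C/D median (−0.101) lay above the box H/ACA median (−0.14), and below it in 0 of 12 settings. The lowest medians there were those of polymerase III RNAs (−0.394) and snRNAs (−0.378). In THP1 labelled GO box C/D stood at −0.0677 and box H/ACA at 0.0275, with box C/D lower in all 12 settings. The snRNAs stood at −0.254 and polymerase III RNAs at −0.222, and 5 of the 7 falls there were polymerase III RNAs.

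Among the box C/D RNAs SNORD3D, a U3 gene, and U13 had the largest falls in both comparisons. U3 is needed to cut the pre-ribosomal RNA, and U13 (SNORD13) is a guide whose pairing directs acetylation of the small subunit RNA. SNORD3D (chr17:19112420-19112636) had 5.46, 5.48 and 5.74 on the Jurkat GO arrays, 8.40, 8.65 and 8.63 on the Jurkat GONH2 arrays and 8.64, 8.78 and 8.47 on the Jurkat controls. It fell by 3.07 with GO (SE 0.126, adjusted p = 7.89e-06), which is 8.39-fold, and differed by −0.07 with GONH2 (adjusted p = 0.793). All 3 GO arrays lay below every other Jurkat array, and the GONH2 and control arrays overlapped. In THP1 it had 8.52, 8.59 and 8.93 on the arrays labelled GO, 6.68, 5.76 and 6.63 on those labelled GONH2 and 8.33, 8.18 and 8.36 on the controls. The arrays labelled GONH2 fell by 1.93 (SE 0.231, adjusted p = 0.000433) without overlap, and those labelled GO stood 0.39 above the controls, which did not pass the test.

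The other U3 probes and U13 followed the same pattern. SNORD3A had 5.78, 6.47 and 6.04 with GO against 8.37, 8.33 and 8.11 in Jurkat controls (−2.18), and 6.47, 5.71 and 6.15 against 7.83, 7.79 and 7.52 in THP1 labelled GONH2 (−1.61). SNORD3C was detected on 0 of 3 Jurkat GO arrays and 0 of 3 THP1 arrays labelled GONH2 and on all 3 of each control, so only bounds are given, at least 2.03-fold lower and at least 1.67-fold lower. The U3 genes are near-identical copies, and their 3 probes cannot be read as 3 independent genes. SNORD13 had 5.40, 5.21 and 4.99 with GO against 7.97, 8.16 and 7.81 in Jurkat controls, and 6.02, 5.00 and 6.18 against 8.36, 8.46 and 7.64 in THP1 labelled GONH2. It fell by 2.78 (SE 0.143) and by 2.42 (SE 0.318) in these comparisons. The lowest of these treated values lie near the detection floor, where the size of a fall is less certain.

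Several methylation guides made from introns fell as well. SNORD36A, a guide for ribosomal RNA, had 5.53, 5.86 and 5.79 with GO, 7.31, 7.96 and 8.12 with GONH2 and 7.69, 7.56 and 7.61 in Jurkat controls. It fell by 1.89 with GO (SE 0.117, adjusted p = 2.12e-05) and by 1.27 in THP1 labelled GONH2, where the arrays had 6.58, 6.28 and 6.76 against 7.69, 7.91 and 7.82. SNORD104 fell by 1.73 and 1.24, with 5.86, 5.95 and 6.00 against 7.86, 7.56 and 7.57 in Jurkat, and 6.45, 6.51 and 6.30 against 7.59, 7.83 and 7.57 in THP1 labelled GONH2. For both RNAs the GO arrays of Jurkat and the arrays labelled GONH2 of THP1 lay below every control array of their line. SNORD33, a guide inside the ribosomal protein gene RPL13A and known in hamster and mouse cells for a part in the response to lipid and oxidative stress, was detected on 0 of 3 Jurkat GO arrays. It was at least 2.27-fold lower there, and it fell by 1.76 in THP1 labelled GONH2, with 5.48, 4.58 and 5.28 against 7.11, 6.89 and 6.61. Box C/D RNAs that rose were few. SNORD12C had 6.50, 6.43 and 6.26 with GO against 5.57, 5.30 and 5.49 in Jurkat controls, a rise of 0.94 (SE 0.117, adjusted p = 0.000455), while its 0.23 in THP1 labelled GONH2 was not called. SNORD11B rose by 0.73 in both comparisons, and since it was not detected on the controls of either line this stands for at least 1.27-fold and at least 1.36-fold. Its Jurkat call held only without Jurkat control array 2, and its THP1 call only without THP1 control array 1 or labelled GONH2 array 2, of the 6 arrays left out in turn.

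**Figure D2:**
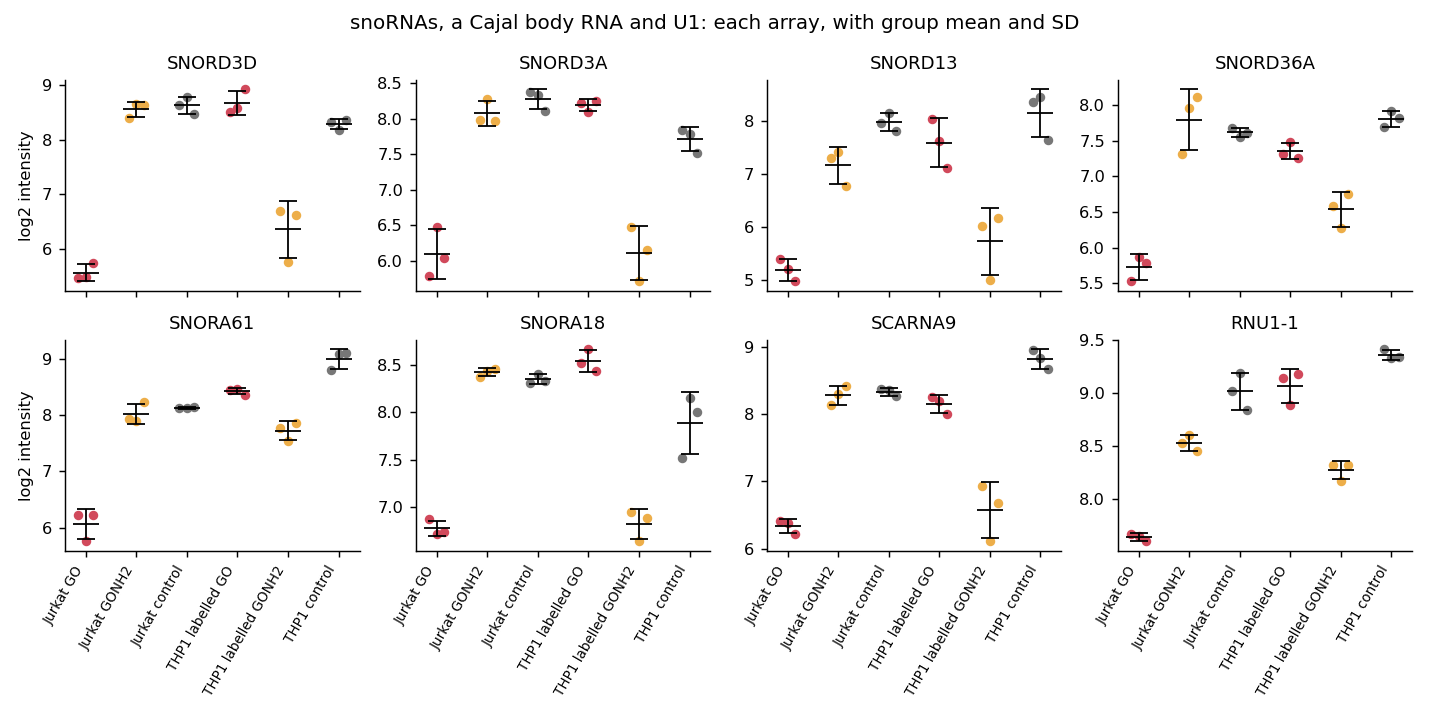
Log2 intensity of 8 small RNAs on each of the 18 arrays, by group, with the group mean (dash) and SD (bars, n = 3); the axes do not start at 0. In all 8 panels the Jurkat GO arrays lie below the Jurkat GONH2 and control arrays, for SNORD3D at 5.46 to 5.74 against controls at 8.47 to 8.78.

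Among the box H/ACA RNAs SNORA61 had the largest fall in Jurkat GO, whereas SNORA24 (−1.41) and SNORA8 (−1.31) fell more in THP1 labelled GONH2. SNORA61 had 6.22, 5.76 and 6.22 with GO, 7.93, 7.90 and 8.22 with GONH2 and 8.12, 8.12 and 8.13 in Jurkat controls. It fell by 2.06 with GO (SE 0.141, adjusted p = 3.33e-05), and by 1.27 in THP1 labelled GONH2, with 7.77, 7.53 and 7.86 against 8.80, 9.08 and 9.11. Its THP1 arrays labelled GO were also all below the controls (−0.57, adjusted p = 0.0149), short of the call. SNORA18 had 6.87, 6.71 and 6.74 with GO against 8.31, 8.41 and 8.33 in Jurkat controls (−1.58), and 6.94, 6.64 and 6.88 against 7.52, 8.15 and 8.00 in THP1 labelled GONH2 (−1.07). The call in THP1 was lost when THP1 control array 2 or 3 or labelled GONH2 array 2 was left out. SNORA24 fell by 1.26 and by 1.41, with 6.04, 5.85 and 5.72 against 7.27, 7.08 and 7.06 in Jurkat. SNORA12 was detected on 0 of 3 Jurkat GO arrays and on all 3 controls and was at least 3.15-fold lower, while in THP1 labelled GONH2 it was detected on 0 of 3 treated and 1 of 3 control arrays. SNORA80A moved the other way, with 6.92, 6.97 and 7.00 against 6.46, 6.48 and 6.17 in Jurkat (0.59) and 6.96, 7.04 and 7.19 against 6.15, 6.34 and 5.92 in THP1 labelled GONH2 (0.92). Leaving out any 1 array ended the Jurkat call for SNORA80A, and scaling by the median of all probes ended both.

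In Jurkat GONH2 the 3 members that fell were SNORA28, SNORD14A and SNORA57. SNORA28, a guide inside the translation factor gene EIF5, had 6.76, 6.50 and 6.74 with GONH2 against 7.48, 7.53 and 7.52 in the controls, without overlap (−0.84, SE 0.0998, adjusted p = 0.0313). Its GO arrays, at 7.74, 7.61 and 7.49, overlapped the controls. SNORD14A differed by −0.54 and SNORA57 by −0.62, both at an adjusted p of 0.0438. Each of these calls was lost whichever single array was left out, so that 0 of 143 members were called in all 6 such fits.

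Of the 7 Cajal body RNAs SCARNA9, which guides modification of the U2 snRNA, fell most. It had 6.41, 6.39 and 6.21 with GO, 8.13, 8.30 and 8.41 with GONH2 and 8.38, 8.35 and 8.27 in Jurkat controls (−1.99 with GO, SE 0.101, adjusted p = 1.19e-05). In THP1 it had 8.26, 8.19 and 8.00 on the arrays labelled GO, 6.93, 6.11 and 6.67 on those labelled GONH2 and 8.96, 8.83 and 8.66 on the controls. Both THP1 groups fell, by 0.67 (adjusted p = 0.0101) and by 2.25 (SE 0.205, adjusted p = 0.000249), and no treated array reached a control. The fall with the arrays labelled GO was lost when any of 5 of the 6 arrays was left out, all but THP1 control array 3. SCARNA10 fell by 1.31 and by 0.95 and SCARNA13 only passed in THP1 labelled GONH2, at least 1.28-fold lower. The Jurkat call of SCARNA10 was lost without any 1 control array or GO array 3, and its THP1 call without any 1 array but labelled GONH2 array 1. That of SCARNA13 was lost without THP1 control array 1 or 2 or labelled GONH2 array 2 or 3.

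Among the snRNAs the U1 and U6 probes were detected on every array and fell in both comparisons. U1 recognizes the start of an intron, and U6 forms part of the catalytic centre of the spliceosome. RNU1-1 had 7.67, 7.65 and 7.60 with GO, 8.52, 8.60 and 8.45 with GONH2 and 9.02, 9.19 and 8.84 in Jurkat controls. It fell by 1.37 with GO (SE 0.114, adjusted p = 7.37e-05), and by 1.09 in THP1 labelled GONH2, with 8.32, 8.17 and 8.32 against 9.41, 9.33 and 9.34. The second U1 probe, for RNU1-3, had the same sign and a smaller size, −0.50 and −0.54, and passed neither test. RNU1-1 and RNU1-3 are near-identical genes, so the signal of either probe may come from both. RNU6-1, whose gene is read by polymerase III, had 9.95, 9.88 and 9.76 with GO against 11.01, 11.00 and 10.86 in Jurkat controls (−1.10), and 9.72, 9.47 and 9.29 against 10.58, 10.39 and 10.28 in THP1 labelled GONH2 (−0.92). RNU4-2, the U4 partner of U6, fell by 1.08 in Jurkat GO and differed by −1.10 in THP1 labelled GONH2, which was not called (adjusted p = 0.00652, p not under 0.001). U2 (RNU2-1) was at 0.51 in Jurkat GO and was detected on 1 or 2 arrays of each group, which is too few to place its level.

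The snRNAs of the minor spliceosome, which removes a rare class of introns, were dim. RNU4ATAC was detected on 0 of 3 GO and 3 of 3 control arrays in Jurkat (at least 1.39-fold lower, adjusted p = 0.00752, not called). RNU11 had 2 probes, of which 1 passed in THP1 labelled GONH2, at least 1.41-fold lower with 0 of 3 treated and 3 of 3 control arrays detected; the other, also on 0 of 3 treated arrays, was at least 1.28-fold lower there and did not pass. The RNU11 call was lost without labelled GONH2 array 1. RNU6ATAC differed by −0.10 in Jurkat GO and 0.18 in THP1 labelled GONH2, with at most 2 arrays of a group detected.

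The largest fitted change of any member was that of VTRNA2-1, a vault-like RNA known to bind and restrain the kinase PKR. It was detected on 0 of 3 Jurkat GO arrays, where it read 4.34, 4.71 and 4.49, against 7.26, 7.66 and 7.48 with GONH2 and 7.93, 7.83 and 7.62 in the controls. It was at least 5.53-fold lower with GO (fitted −3.28, SE 0.134, adjusted p = 7.89e-06) and differed by −0.33 with GONH2 (adjusted p = 0.245). In THP1 it had 6.93, 6.77 and 6.80 on the arrays labelled GO, 5.67, 5.34 and 5.37 on those labelled GONH2 and 7.99, 8.04 and 8.08 on the controls. The 3 THP1 groups did not overlap, with a change of −1.20 (SE 0.101, adjusted p = 0.000857) for labelled GO and of −2.57 (SE 0.137, adjusted p = 3.66e-05) for labelled GONH2. These 3 calls were kept in all 6 fits that left out 1 array and in all 10 alternative settings in which the probe could be tested.

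VTRNA1-1, a component of the vault particle, was detected on all 6 control arrays and on 0 of 12 treated ones. It had 4.69, 4.43 and 4.46 with GO, 4.78, 5.33 and 5.06 with GONH2 and 5.54, 5.68 and 5.46 in Jurkat controls. It was at least 1.17-fold lower with GO, and in THP1 at least 1.23-fold lower on the arrays labelled GO and at least 1.22-fold lower on those labelled GONH2. With scaling to probes detected on all arrays these 3 calls were lost.

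The 4 Y RNAs, small RNAs held by the Ro60 and La proteins, did not move together. RNY1 had 6.37, 6.37 and 6.55 on the THP1 arrays labelled GO, 5.71, 5.36 and 5.70 on those labelled GONH2 and 7.32, 7.12 and 7.02 on the controls, which are changes of −0.72 and −1.56 (adjusted p = 0.00726 and 0.00026). In Jurkat it differed by −0.73 with GO and −0.88 with GONH2, and neither passed. RNY4 fell in THP1 by 1.15 on the arrays labelled GO and by 1.90 on those labelled GONH2, with 5.92, 6.02 and 5.35 and then 4.63, 4.81 and 5.62 against 7.25, 6.80 and 6.70, and was at least 1.32-fold lower in Jurkat GO. RNY5 was at least 1.35-fold lower in Jurkat GO and did not pass in either THP1 comparison. RNY3 had 8.71, 8.83 and 8.60 with GO against 8.03, 8.29 and 8.12 in Jurkat controls, every GO array above every control (0.57, adjusted p = 0.00453, not called). Several of the Y RNA calls rested on single arrays. On the THP1 arrays labelled GO the call of RNY1 was lost without control array 2 or labelled GO array 1 or 2, and that of RNY4 without any 1 array but labelled GO array 2. In Jurkat GO that of RNY4 was lost without control array 2 or 3 or GO array 3, and that of RNY5 without any 1 array but GO array 1.

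**Figure D3:**
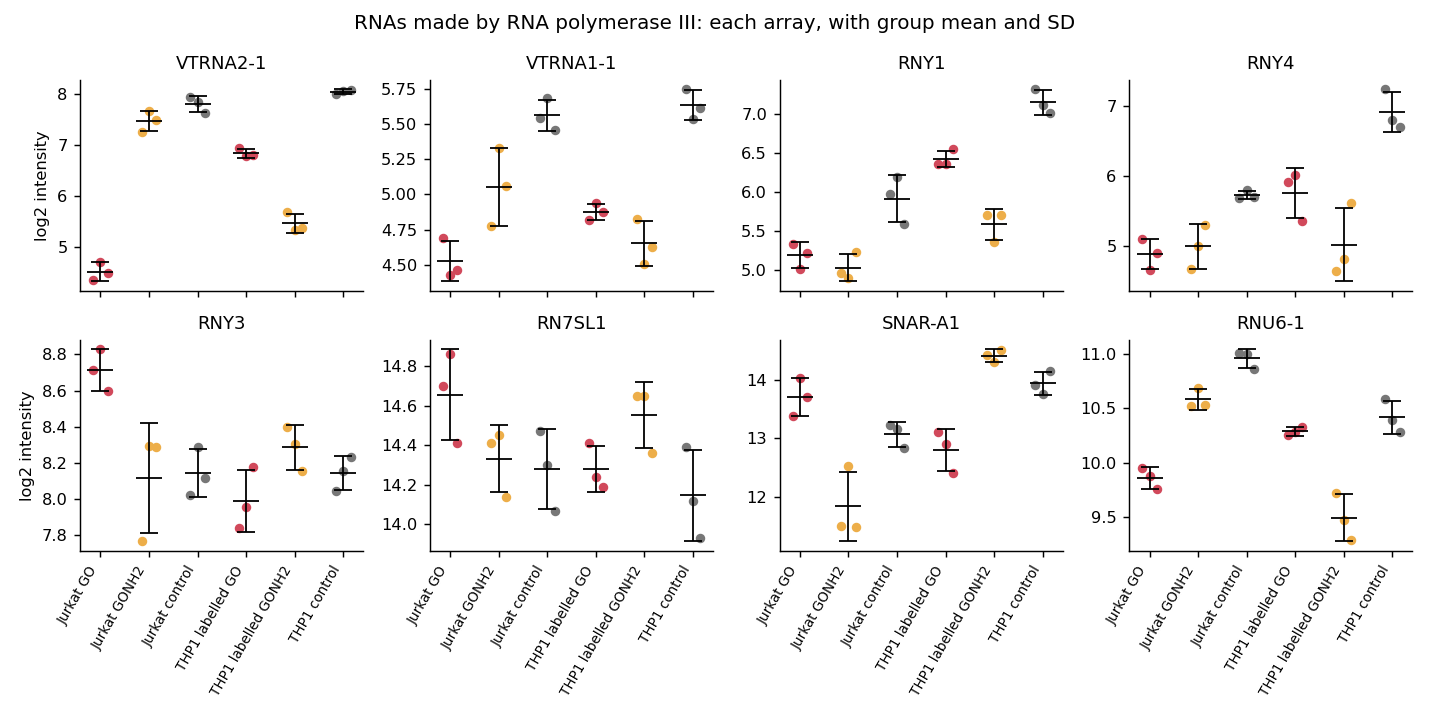
Log2 intensity of 8 RNAs made by RNA polymerase III, U6 included, on each of the 18 arrays, with the group mean (dash) and SD (bars, n = 3); the axes do not start at 0. VTRNA2-1 lies at 4.34 to 4.71 in Jurkat GO against 7.62 to 7.93 in the Jurkat controls, whereas RN7SL1 overlaps its controls in every treated group.

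The remaining polymerase III RNAs fell, rose or did neither. RN7SK, which holds the elongation factor P-TEFb inactive, had 1 probe detected on every array, at 8.78, 8.62 and 8.77 with GO against 9.47, 9.56 and 9.40 in Jurkat controls (−0.76, SE 0.1, adjusted p = 0.000616); it was at −0.35 in THP1 labelled GONH2 and did not pass. The dimmer RN7SK probe was at least 1.47-fold lower in Jurkat GO. RN7SL1, the scaffold of the signal recognition particle, had 14.70, 14.86 and 14.41 with GO against 14.47, 14.30 and 14.07 in Jurkat controls and overlapped them (0.38, adjusted p = 0.0771). RN7SL1 has many sequence copies in the genome, so this signal cannot be given to 1 gene.

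SNAR-A1, one of a family of near-identical RNAs that bind the protein NF90, had another pattern over the groups. It had 13.39, 14.04 and 13.71 with GO, 11.50, 12.52 and 11.47 with GONH2 and 13.23, 13.16 and 12.83 in Jurkat controls. In THP1 it had 13.11, 12.90 and 12.41 on the arrays labelled GO, 14.44, 14.31 and 14.52 on those labelled GONH2 and 13.91, 13.77 and 14.16 on the controls. The GO arrays of Jurkat lay above the controls (0.64) and the GONH2 arrays below them (−1.24), and neither passed, while in THP1 the arrays labelled GO fell by 1.14 (adjusted p = 0.00749) and those labelled GONH2 stood 0.48 higher, which did not pass. The THP1 fall was lost without THP1 control array 1 or 3 or labelled GO array 2. RMRP, the RNA of RNase MRP, was detected on 0 of 3 Jurkat GO arrays (at least 1.13-fold lower, adjusted p = 0.0067, not called), and RPPH1, the RNA of RNase P, was at −0.09.

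The materials were also compared with each other within each line. In Jurkat 40 members were higher with GONH2 than with GO and 4 were lower, where 11.8% and 12.4% of all probes were called in those directions. VTRNA2-1, detected on 0 of 3 GO arrays, was at least 4.39-fold higher with GONH2 (adjusted p = 8.72e-06). SNORD3D was 3.00 higher on the log2 scale (SE 0.129) and SCARNA9 1.94 higher (SE 0.121). SNAR-A1 was lower with GONH2, by −1.88 (SE 0.29, adjusted p = 0.0011), and SNORA80A, SNORA28 and SNORD12C were also lower. The call of SNAR-A1 was lost without GO array 3 or GONH2 array 1, and that of SNORD12C without any 1 array but GONH2 array 2. In THP1 37 members were lower on the arrays labelled GONH2 than on those labelled GO and 7 were higher, beside 13.2% and 14.7% of all probes. SNORD3D was lower there, by −2.32 (SE 0.245, adjusted p = 0.000175), and SNAR-A1 was 1.62 higher (SE 0.18, adjusted p = 0.00021). SNORD3D and SCARNA9 were thus lower with GO in Jurkat and lower under the GONH2 label in THP1, the label that the tabulated means of GO-treated monocytes matched.

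Set side by side, Jurkat GO and THP1 labelled GONH2 use different controls and share no array. Of the 59 members that fell in Jurkat GO 32 (54.2%) also fell in THP1 labelled GONH2, which is 78% of the 41 there. These 32 were 15 box C/D, 10 box H/ACA, 2 Cajal body, 2 snRNA and 3 polymerase III probes. SNORD11B and SNORA80A rose in both, and 0 members were called in opposite directions. Over all 19455 tested probes the overlap was much the same. There 1461 fell in both, which is 61.1% of those that fell in Jurkat GO and 75.3% of those that fell in THP1 labelled GONH2, and 0 were called in opposite directions. Over the 143 probes the fold changes had r = 0.813 and the same sign at 122 (85.3%), against r = 0.854 and 79.3% over all tested probes, a description of probes that are not independent, since several share a host transcript.

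**Figure D4:**
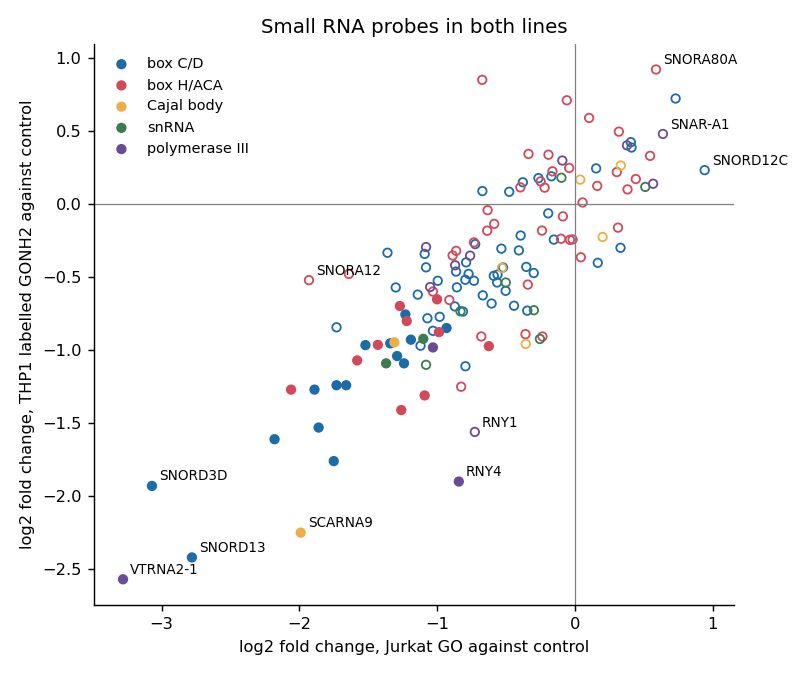
Each point is 1 small RNA probe, with its log2 fold change in Jurkat GO on the x axis and in THP1 labelled GONH2 on the y axis; filled points are the 32 called lower in both. Most points lie below 0 on both axes, with VTRNA2-1 at fitted values of −3.28, where it was below detection with GO, and −2.57.

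Treated by the label, the responses of the lines differed at many members. The response to GO was more negative in Jurkat than in THP1 for 39 members and more positive for 4 (limma interaction over 12 arrays), beside 12.3% and 12.2% of all probes. The response to GONH2 was more positive in Jurkat for 19 and more negative for 3, beside 9.06% and 9.52%. With the monocyte labels exchanged the response to GO differed at 2 members, both more negative in Jurkat, and the response to GONH2 was more positive in Jurkat at 1 member. Members with a more negative response to GONH2 in Jurkat under this exchange are not counted here. The share of all probes under this exchange is not given here, so these counts cannot be read as particular to small RNAs. Before treatment 10 members were higher and 7 lower in Jurkat control than in THP1 control, beside 5.86% and 5.28% of all probes. This split was 5 and 8 with scaling by the median of all probes and 12 and 4 with scaling by probes detected on all arrays. SNORA12 (1.70), SNORA28 (1.53) and SNORA72 (1.19) were higher in Jurkat controls, and RNY1 (−1.23), RNY4 (−1.19) and SNORA61 (−0.87) were lower.

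Most snoRNAs are processed from the introns of a host gene, and host and guide were compared where both had a tested probe. By position in the reference 116 of the 121 snoRNA and Cajal body probes lay inside another gene, strand not considered, and 85 had a host probe that was tested, for 56 hosts. In Jurkat GO host and member both fell in 14 of these 85, the member alone fell in 21, the host alone was called in 20 and neither was called in 26. Over all probes 12.3% fell there and 12.8% rose. Hosts called alone are counted in either direction. Whether the joint falls were more than separate falls of hosts and members would give was not tested. The median member of these pairs was at −0.633 and the median host at −0.273, and across pairs the fold changes had r = −0.00322. In THP1 labelled GONH2 both fell in 5, the member alone in 19 and the host alone was called in 16, with r = 0.0398. Of all probes 9.98% fell and 9.89% rose in that comparison.

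Single hosts gave different pictures. NOP56, itself a core protein of box C/D particles, fell by 0.87 in Jurkat GO, and its 3 guides SNORD56, SNORD57 and SNORD110 all fell. SNORD57 fell by 1.08, and SNORD56 and SNORD110, detected on 0 of 3 GO arrays, were at least 1.45-fold and at least 1.38-fold lower. The 4 guides of RPL13A were each detected on 0 of 3 Jurkat GO arrays, so only bounds hold there. SNORD33, SNORD32A and SNORD35A were called, at least 2.27-fold, 1.63-fold and 1.21-fold lower, SNORD34 was not, and the host was at −0.637. In THP1 labelled GONH2 SNORD33 (−1.76) and SNORD34 (at least 1.62-fold lower, 0 of 3 treated arrays detected) were called and SNORD32A (−0.87) and SNORD35A (−0.78) were not, with the host at 0.119. The long noncoding host SNHG1 was at −1.39 and −1.29, with its 4 guides at −1.36 to −0.476 and −1.09 to 0.0859. The 2 pairs called in opposite directions in Jurkat GO were SNORA12 with CWF19L1 and SNORD12C with ZFAS1. SNORA12 fell while CWF19L1 rose by 0.779 (adjusted p = 0.00032). SNORD12C rose by 0.94 while ZFAS1 fell by 2.44 (SE 0.0957, adjusted p = 7.69e-06). The other ZFAS1 guides, SNORD12 and SNORD12B, were below 0 there, at fitted values of −0.441 and −0.588, and were not called. In THP1 labelled GONH2 ZFAS1 was at −1.9 and SNORD12 was called, at least 1.07-fold lower. SNORD12B (−0.49) and SNORD12C (0.234) were not called there.

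**Figure D5:**
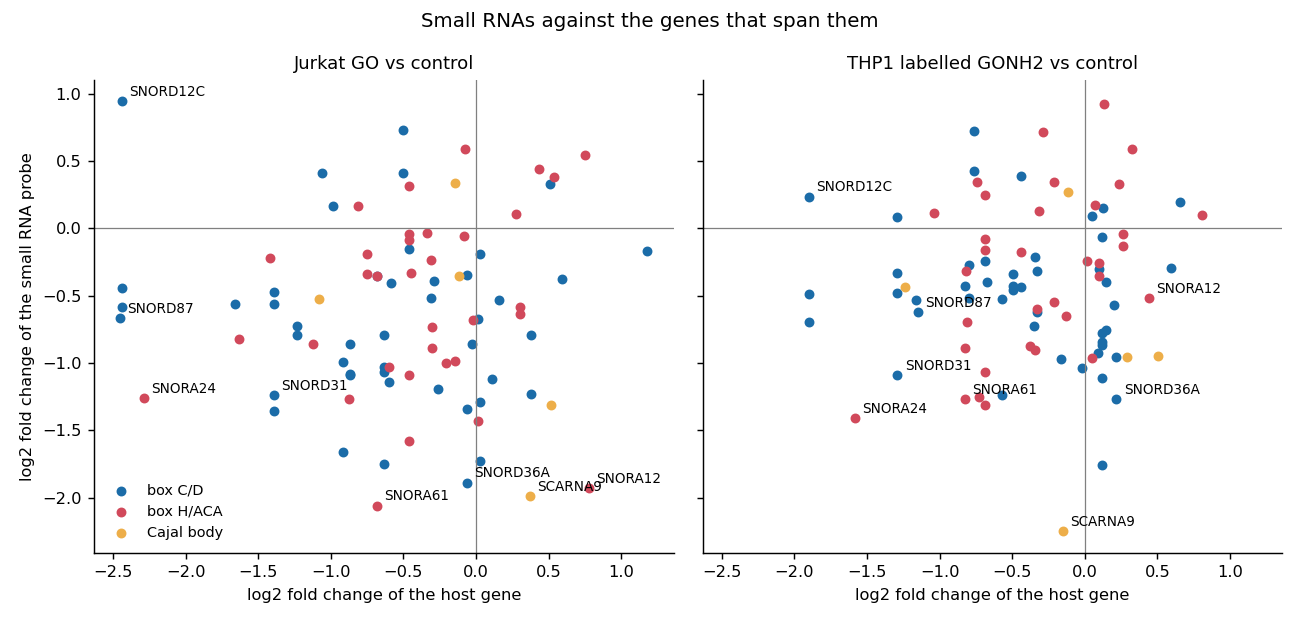
Each point is 1 of 85 snoRNA or Cajal body probes, with the log2 fold change of its host gene on the x axis and its own on the y axis, for Jurkat GO (left) and THP1 labelled GONH2 (right). The points form no line (r = −0.00322 and 0.0398), and SNORD12C stands apart on the left at 0.94 with its host ZFAS1 at −2.44.

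The proteins that bind or make these RNAs changed in part and in both directions in Jurkat GO, where 12.3% of all probes fell and 12.8% rose. Of 14 Sm and LSm proteins, which ring the snRNAs and U6, 7 fell and 1 rose, with LSM3 at −2.72 (SE 0.102) and SNRPD2 at −2.41 as the largest falls and LSM2 at 1.00. Of 10 proteins of RNase P and RNase MRP 5 fell, POP5 (−1.86) and RPP21 (−1.41) most, and of 8 signal recognition particle proteins SRP14 (−1.77) and SRP19 (−1.64) fell. Of the 4 core proteins of box C/D particles NOP56 alone fell, and of the 4 of box H/ACA particles NOP10 alone (−2.22), counts too small to set against those shares. Of 9 proteins specific to U1, U2 or U5 4 rose and 2 fell, with SNRPC at −0.98 and SNRNP70 at 0.93; the 4 rises were lost when arrays were scaled by the median of all probes. In the same comparison the shared myeloid markers also moved, 7 of 18 higher and 4 lower, as did CD3D among 10 tested T-cell markers (−2.45), and their part in these results was not tested.

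RNA polymerase III itself showed no common direction. Of its 12 tested subunits 3 fell and 2 rose in Jurkat GO (POLR3K −1.28 and CRCP 1.38 the largest), and of 12 polymerase III factors GTF3C1 (0.94) and MAF1 (0.64), the general repressor of the polymerase, rose; lists of 12 are short to set against 12.3% and 12.8% of all probes, and with scaling by the median of all probes 0 subunits and 0 factors rose. Among the binding partners MVP, the main vault protein, rose by 1.49, the La protein SSB fell by 0.88, and of the 7SK proteins LARP7 fell by 1.21 and MEPCE rose by 1.09. In THP1 labelled GONH2 several of these genes were called in the same direction, where 9.98% of all probes fell and 9.89% rose. Among them were LSM3 at −2.02, NOP10 at −1.72, POP5 at −1.42, MVP at 1.42, MAF1 at 1.23, SSB at −1.27 and LARP7 at −1.35. By list, 6 of 14 Sm and LSm proteins fell there and 1 rose, and 3 of 10 RNase P and RNase MRP proteins fell. Of the 12 polymerase III subunits 0 fell and 1 rose, and of the 12 factors 1 fell and 3 rose. In Jurkat GONH2 0 genes of these protein lists were called by limma, where 0.288% of all probes fell and 0.524% rose. At such shares lists of this size cannot show whether these proteins differed from other probes.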

How the data were processed

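RNA of 6 groups of 3 samples was profiled on 18 Illumina HumanHT-12 v4 arrays. The authors labelled cRNA with an oligo(dT)-primed kit, discarded RNA of low integrity and extracted the values with the GenomeStudio software. The deposited main table holds non-normalized linear intensity and, beside it, detection p-values as the authors exported them, and the deposited value table holds the authors' normalized intensity, used as an alternative. Symbols came from the platform annotation (30106 probes with 1 symbol, 8 with several). Intensity was corrected with neqc (normexp from detection p-values, offset 16), quantile normalized over the 18 arrays, set to log2 and filtered to detection p under 0.01 on 3 or more arrays. Groups were taken from the labels and compared with limma 3.58.1 in R 4.3.3 (lmFit, eBayes) on 6 arrays, or 12 for a difference between lines, with Benjamini-Hochberg adjustment over all tested probes. The script was tested on simulated data. A probe detected on 0 of 3 arrays of a group has only a bound there, and "at least" folds set the bright group's mean against, per array, the higher of the lowest detected signal and the probe's own. Fitted sizes that rest on values near the detection floor, as for SNORD13, SNORD33 and RNY4, are less certain. The number of arrays limits the precision.

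Named were, per class, the 4 brightest members, up to 6 called members of largest change per comparison, all snRNAs and polymerase III RNAs, members that differed between lines, and up to 2 called genes of each list of proteins; SNORD11B, SNORA72, SNORD58B, SNORA84 and further genes of hosts and lists were added after their values were seen. The members and lists were chosen with earlier results of these data known. Alternatives were other background, offset, normalization, filter, fit and call settings, exchanged monocyte labels and each array left out.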

Additional observations from a re-analysis of the deposited data

Results flagged for a closer look

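The results below are those in which the response to a treatment, by its label, differed between the lines by the limma interaction over 12 arrays (Jurkat response minus THP1 response, log2, called as above). A difference that includes a group with 0 of 3 arrays detected is a fitted value only, with no settled size or rank. In the response to GO this holds for 10 of 43 members, namely SNORD3C, SNORD33, SNORD78, SNORD96B, SNORA12, SNORA56, SNORA57, VTRNA2-1, RNY5 and the dimmer RN7SK probe, all of them on 0 of 3 Jurkat GO arrays. SNORD78 and SNORD96B were also on 0 of 3 THP1 control arrays. In the response to GONH2 it holds for 5 of 22, namely SNORD3C, SCARNA13, SNORA59B, SNORA63 and the RNU11 probe, all on 0 of 3 THP1 arrays labelled GONH2. SNORA59B and the RNU11 probe were also on 0 of 3 Jurkat GONH2 and 0 of 3 Jurkat control arrays. For these RNAs no Jurkat response could be measured. For GO the Jurkat response was the more negative at 39 members. Among box C/D RNAs the U3 probes and U13 differed by the following values, SNORD3D by −3.45, SNORD3A by −2.65, SNORD13 by −2.22 and SNORD3C by −1.99. Other box C/D RNAs differed by −1.92 (SNORD89), −1.71 (SNORD96A), −1.7 (SNORD83B), −1.55 (SNORD65), −1.44 (SNORD16), −1.44 (SNORD36A), −1.41 (SNORD48), −1.34 (SNORD33), −1.34 (SNORD68), −1.34 (SNORD78) and −1.33 (SNORD31). Smaller differences were those of SNORD55 (−1.29), SNORD104 (−1.17), SNORD36C (−1.07), SNORD96B (−0.993) and SNORD14C (−0.684). Among box H/ACA RNAs SNORA18 differed by −2.23, SNORA12 by −2.18, SNORA57 by −2.08, SNORA56 by −1.53, SNORA61 by −1.49 and SNORA67 by −1.46. SNORA24 (−1.35), SNORA70 (−1.33), SNORA8 (−1.22), SNORA3A (−0.972) and SNORA62 (−0.971) completed that class. SCARNA9 differed by −1.33, RNU1-1 by −1.08, RNU6-1 by −0.969 and RNU4-2 by −0.83. Among polymerase III RNAs VTRNA2-1 differed by −2.08, RNY5 by −1.2, and the RN7SK probes by −1.83 and −0.756. SNAR-A1 (1.78), SNORD12C (1.24), SNORD11 (0.996) and RNY3 (0.723) were the 4 members with the more positive response in Jurkat.

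For GONH2 the Jurkat response was the more positive at 19 members. VTRNA2-1 (2.24), SCARNA9 (2.19), SNORD3D (1.86), SNORD3C (1.66), SCARNA13 (1.5), SNORD36A (1.45) and SNORD3A (1.41) were among them. Others were SNORA8 (1.35), SNORA24 (1.26), SNORD33 (1.25), SNORA61 (1.17), SNORA18 (1.15), SNORA59B (1.14), SNORD16 (1.13) and SNORA14B (1.05). SNORD35B (0.929), 1 RNU11 probe (0.837), SNORD36C (0.797) and SNORA63 (0.772) had smaller fitted differences. SNAR-A1 (−1.72), SNORA28 (−1.43) and SNORA80A (−1.3) had the more negative response in Jurkat. With the monocyte labels exchanged, 2 members were more negative in Jurkat in the response to GO and 1 more positive in that to GONH2. Members more negative in the latter are not counted, and no share of all probes stands beside these counts.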

How the results depend on the processing

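Counts of members called are given lower first, then higher, and every setting was compared with the reported 59 and 3 for Jurkat GO, 3 and 0 for Jurkat GONH2, 7 and 1 for THP1 labelled GO, and 41 and 3 for THP1 labelled GONH2. The shares of all probes called under these settings are not given here, so the counts cannot be read as particular to small RNAs. For the alternative settings a count that changed little from the reported one is left out, so a count not listed is not a count of 0. With 1 array left out they ranged over 45 to 55 and 1 to 2, 0 to 0 and 0 to 0, 3 to 6 and 0 to 1, and 29 to 37 and 1 to 2. For THP1 labelled GO the lower count was 3 without labelled GO array 2 and 4 without labelled GO array 1 or 3 or control array 2 or 3. For GONH2 against GO in Jurkat (4 lower, 40 higher) they ranged over 2 to 4 and 28 to 37, and for labelled GONH2 against labelled GO in THP1 (37 and 7) over 27 to 34 and 2 to 4. For the Jurkat against the THP1 controls (7 and 10) they ranged over 3 to 5 and 6 to 11, for the difference between lines in the response to GO (39 and 4) over 35 to 41 and 2 to 4, and for GONH2 (3 and 19) over 3 to 5 and 13 to 20.

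The replicate numbers paired the arrays at most weakly. Same-number correlations of residuals were −0.0657 to 0.158, and the highest correlations with another number were −0.0305 to 0.142. In most cases, but not in all, the same-number value was the higher. A replicate block gave 53 lower and 1 higher in Jurkat GO, 0 lower in Jurkat GONH2, 4 lower and 0 higher in THP1 labelled GO, 37 lower and 1 higher in THP1 labelled GONH2, and 4 lower for the controls. An adjusted p under 0.05 alone gave 6 higher in Jurkat GO, 18 lower and 8 higher in THP1 labelled GO, 73 lower and 7 higher in THP1 labelled GONH2, 13 lower and 69 higher for GONH2 against GO in Jurkat, 66 lower and 12 higher in THP1, 13 lower and 24 higher for the controls, 62 lower for the line difference in GO, and 5 lower and 45 higher for that in GONH2. With only the probes detected on all 18 arrays, which leaves 47 members, the counts were 30 lower in Jurkat GO, 5 lower in Jurkat GONH2, 4 lower and 0 higher in THP1 labelled GO, 23 lower in THP1 labelled GONH2, 24 higher for GONH2 against GO in Jurkat, 21 lower in THP1, 4 lower for the controls and 25 lower for the line difference in GO.

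Scaling by the median of all probes gave 1 higher in Jurkat GO, 13 lower and 0 higher in THP1 labelled GO, 0 higher in THP1 labelled GONH2, 1 lower for GONH2 against GO in Jurkat, 5 higher for the controls and 2 higher for the line difference in GO. Scaling by probes detected on all arrays gave 3 lower and 3 higher in THP1 labelled GO, 3 higher for labelled GONH2 against labelled GO, 4 lower for the controls, 1 higher for the line difference in GO and 5 lower for that in GONH2. Without background correction, with an offset of 50 and with the authors' normalized values Jurkat GONH2 had 10, 9 and 11 lower, and THP1 labelled GO 3, 2 and 3 higher; labelled GONH2 against labelled GO had 3 higher in the outer settings of these. With all 18 arrays in the fit Jurkat GONH2 had 6 lower and THP1 labelled GO 2 higher, and with no filter Jurkat GONH2 had 0 lower (5 and 38 members had an unadjusted p under 0.05 in limma's reported fit, higher and lower). With the monocyte labels exchanged the line differences had 2 lower and 0 higher for GO and 1 higher for GONH2.

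Exchanging the labels also turned the sign of the line difference in the response to GO for SNORD11 (−0.0194), SNORD33 (0.00442), SNORA24 (0.144), SNORA8 (0.216), SCARNA9 (0.253) and RNU4-2 (0.0177), and in the response to GONH2 for SNORD16 (−0.0662), SNORD33 (−0.0999), SNORD3A (−0.666), SNORD3D (−0.458), SNORA18 (−0.578), SNORA24 (−0.226) and SNORA8 (−0.0797). No other named member turned its sign after a call under these alternatives. Of the 45 named calls in Jurkat GO 35 held in every fit with 1 array left out and 35 in every alternative, and of the 36 in THP1 labelled GONH2 26 and 25 did. Over 11 alternatives the box C/D median ranged from −1.06 to −0.231 in Jurkat GO and from −0.68 to −0.163 in THP1 labelled GONH2, nearest 0 without background correction. The cause of these shifts was not tested. Dim probes limit the depth, since 29 members were detected on only 3 to 6 arrays.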
